A study of Schizosaccharomyces pombe with 37 samples.

Results

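Antisense RNAs are transcribed from the strand opposite to a gene and run through it in the other direction. The annotation used for the counting names 635 of them after the gene they cross (abc1-antisense-1, for instance, crosses abc1), and these RNAs and their sense genes are described here. They were taken as every row whose name holds "-antisense-", except nup211-antisense-1, which was left out, so the 635 are a subset of the 6996 features in the table. The sense partner is the row whose name or identifier stands before "-antisense-". Of the 635, 616 had such a row, and these pointed to 598 different sense genes, because 16 genes carry more than 1 antisense RNA.

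In fission yeast, transcription of a gene ends when the cleavage and polyadenylation factor (CPF) recognises the polyadenylation signal in the nascent RNA, whose canonical form is AAUAAA, cuts the RNA and lets RNA polymerase II come off the DNA downstream. Genes lie close together, so an RNA that is not ended at its own signal can run into the neighbour, and where the neighbour faces the other way it becomes antisense to it. Antisense RNAs are mostly scarce in growing cells, since many of them are degraded by the nuclear exosome or held down by chromatin and RNA interference pathways.

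Total RNA of 30 Schizosaccharomyces pombe cultures was sequenced, 3 for each of 9 mutants and 3 for the wild type (wt), all grown exponentially in rich YES medium at 30 degrees Celsius. All 10 strains share h- leu1-32 ura4-D18 ade6-704 and a trp1+::ade6+ reporter, and none carries the hairpin that makes small RNAs against ade6. The mutants were yth1-R59C (a point mutant of the CPF subunit that reads the AAUAAA signal), pfs2-F115H::kanMX (a WD repeat subunit), ssu72D::kanMX and dis2D::kanMX (2 phosphatases of the complex), ppn1D::kanMX and swd22D::kanMX (2 subunits associated with those phosphatases), and PAS-T4A, PAS-T4C and PAS-T4G, in which only the signal of the ade6+ reporter was changed, to AAUUAA in PAS-T4A, to AAUGAA in PAS-T4C and to AAUCAA in PAS-T4G. Each strain is 1 genotype grown 3 times, and nothing in the labels says that the replicates came from separate clones, so the p-values cover the spread between these cultures.

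The reads of the deleted genes matched the labels with 1 exception. The point mutants and the reporter mutants could not be checked in this way, because the values are counts per gene. ssu72, dis2 and swd22 had 0 reads in each of the 3 libraries of their own deletion. In the libraries labelled ppn1D, however, ppn1 had 76.3, 77.3 and 86.1 CPM (the number of reads scaled to a fixed total for each library), against 77.5, 79.3 and 62.8 CPM in wt, so these libraries are called by their label throughout. The libraries held between 1031965 and 6344396 counted reads, and the wt libraries (3713098 to 6344396) were deeper than most mutant libraries. One read was therefore worth between 0.158 and 0.969 CPM.

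The antisense RNAs were long and covered most of their genes. In RefSeq's annotation of the ASM294v3 genome, 621 of the 635 could be matched by identifier, 284 on chromosome I, 230 on chromosome II and 107 on chromosome III. Their median length was 1433 bases (quartiles 991 and 2082), and the median antisense RNA covered 75.9% of its sense gene. Of 598 pairs with 2 positions, 596 lay on opposite strands and 2 on the same strand in this annotation. The table itself was counted on the older ASM294v2 build, so positions given here belong to ASM294v3 only.

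The hexamer AATAAA, the DNA form of the signal that CPF reads, is shown here where it lies near a 3′ end that bears on the changes described below. The last 100 bases of each annotated RNA were searched on the RNA's own strand. No AATAAA was found in the ends upstream of the antisense RNAs of abc1, guf1, SPBC365.11 and mdl1. SPNCRNA.1099 and SPAC688.12c overlap the start of the antisense RNA, and the hexamer of SPNCRNA.1099 lies within hsp3101-antisense-1. Printed 5′ to 3′ with the hexamer in capitals, the ends of the nearest upstream genes, on the same strand, of the antisense RNAs of hsp3101, cig2, rmt2 and end4 read as follows.
SPNCRNA.1099 (upstream of hsp3101-antisense-1, chrIII:47508-47537, + strand): actaacaaaaacAATAAAttgttccactat
pmc1 (upstream of cig2-antisense-1, chrI:2712751-2712780, - strand): gttttatgaatgAATAAAgaaaactccatt
dsk2 (upstream of SPAC26A3.17c-antisense-1, chrI:3371295-3371324, + strand): tgaatttcaaatAATAAAatgatatagaca
SPAC688.12c (upstream of end4-antisense-1, chrI:3138701-3138730, - strand): aagttgtagaaaAATAAAtctggattatgt

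Several antisense RNAs carried the hexamer near their own 3′ end as well. The 3 shown rose in 2 or more mutants.
SPAC1B3.04c-antisense-2 (chrI:4933830-4933859, + strand): actattctattcAATAAAtgcagaatgatt
SPBC365.11-antisense-1 (chrII:2515020-2515049, - strand): cttacgttgttcAATAAAaaatgaatattc
sec16-antisense-1 (chrI:5423788-5423817, - strand): ttgttgccagacAATAAAtattcataaaat

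AATAAA was present in the last 100 bases of 25.4% of the 621 antisense RNAs, of 28.9% of the 620 genes upstream of them and of 25.3% of all 5113 protein-coding genes. The reverse complement, TTTATT, was present in 13.2%, 20.3% and 23.1% of the same windows. Among antisense RNAs that rose (defined below), AATAAA was present in 6 of 19 for yth1-R59C, 17 of 68 for pfs2-F115H and 15 of 68 for ssu72D. These matches are descriptions of letters in a window, not of sites in use.

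Most antisense RNAs were scarce in wt and a minority outnumbered the sense RNA. Over the 635, the median of the wt means was 2.46 CPM (quartiles 0.749 and 7.13), and 27 had no read in any wt library. The sense partners had a median of 41.7 CPM, and in 82 of the 616 pairs the antisense RNA had more reads than the sense gene in wt (83 of 600 pairs when divided by length). Reads from the wrong strand were rare: adh1, which encodes alcohol dehydrogenase and is among the most abundant mRNAs, had 6218, 6381 and 6352 CPM in wt, while adh1-antisense-1 had 0, 0.946 and 0.269 CPM. Among the 31 pairs whose sense gene reached 500 CPM, the median antisense level was 0.0743% of the sense level.

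The 5 most abundant antisense RNAs in wt crossed SPBC24C6.09c (a phosphoketolase family gene, 61.7, 58.8 and 65.4 CPM), SPBC215.07c (pdp2, a PWWP domain protein, 62.0, 61.2 and 53.3 CPM), vps4 (an AAA ATPase of vacuolar sorting, 55.9, 55.0 and 62.5 CPM), spo4 (a kinase of sporulation, 55.2, 57.8 and 60.1 CPM) and SPBC28E12.02 (an RNA-binding protein gene, 52.2, 49.5 and 51.4 CPM). Their sense genes differed widely. vps4 itself had 65.5, 67.5 and 68.9 CPM, about as much as its antisense RNA, whereas spo4 had no read in wt. Against the sense level per kilobase, antisense RNA was highest over ght6, SPCC594.03, atf21, meu26 and SPBC28E12.02, whose sense genes averaged between 0.0525 and 0.263 CPM in wt, while ght6-antisense-1 had 43.1, 47.3 and 46.3 CPM. None of these abundant antisense RNAs was called changed in any mutant. Among the 5 most abundant in wt, the largest change was that of SPBC215.07c-antisense-1 in pfs2-F115H, with 92.6, 86.6 and 85.2 CPM in the mutant against 62.0, 61.2 and 53.3 CPM in wt (log2 fold change 0.58 ± 0.10 SE), short of the 2-fold minimum. In the second set meu26-antisense-1 changed more, by -0.90 ± 0.26 SE in PAS-T4G, also short of that minimum.

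**Figure D1:**
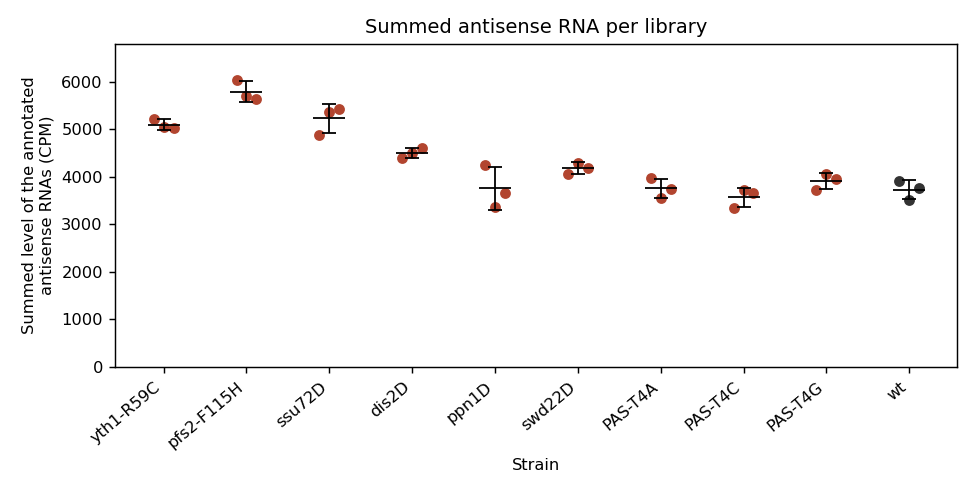
Summed CPM of the 635 antisense RNAs in each library (points), with the mean and SD of the 3 libraries of each strain (bars); the mutants stand left of wt. The libraries of yth1-R59C (5030 to 5228 CPM), pfs2-F115H (5646 to 6043 CPM) and ssu72D (4887 to 5439 CPM) lie above all wt libraries (3521 to 3909 CPM).

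Antisense RNA as a whole was more abundant in pfs2-F115H, ssu72D, yth1-R59C, dis2D and swd22D than in wt. The 635 antisense RNAs together made up 5646 to 6043 CPM in pfs2-F115H, 4887 to 5439 CPM in ssu72D, 5030 to 5228 CPM in yth1-R59C, 4401 to 4615 CPM in dis2D and 4052 to 4300 CPM in swd22D, against 3521 to 3909 CPM in wt. None of these ranges overlaps that of wt. The means were 1.55 (pfs2-F115H), 1.40 (ssu72D), 1.37 (yth1-R59C), 1.21 (dis2D) and 1.12 (swd22D) times the wt mean. The libraries labelled ppn1D (3367 to 4254 CPM) and the 3 reporter signal mutants (3346 to 4057 CPM) overlapped wt. The 598 sense partners summed to 72157 to 77323 CPM in those 5 mutants and to 71162 to 76265 CPM in the libraries labelled ppn1D, against 74197 to 75747 CPM in wt, with ratios of the means to wt between 0.983 and 1.02. The increase was not confined to the RNAs most abundant in wt: without the 20 most abundant there, the ratios were 1.61, 1.49, 1.38, 1.25 and 1.16 in the same order of strains. RNAs that were abundant only in a mutant stayed in these sums, so the part of a few such RNAs was not tested. Such sums are shares of the counted reads, so a change in the RNA content of a cell cannot be told apart from them.

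To find which antisense RNAs changed, each mutant was compared with wt feature by feature by limma on log2(CPM + 1), over the 5911 features with a mean of at least 1 CPM. Of the 635 antisense RNAs 479 passed this filter, as did 566 of the 598 sense partners. Since an antisense RNA that is high in only some mutants can pass through those, the called share is given of the 635 as well as of the 479. A feature was called higher or lower when its adjusted p (Benjamini-Hochberg over all features tested in that mutant) was under 0.05 and its change at least 2-fold. Counts at an unadjusted p under 0.05 have no share of all features at that threshold beside them, so they are not read as changes. Fold changes are given as mutant over wt. Because 1 was added to each CPM before the log2, those of scarce RNAs are smaller than their ratio of CPM. All 9 comparisons share the same 3 wt libraries.

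**Figure D2:**
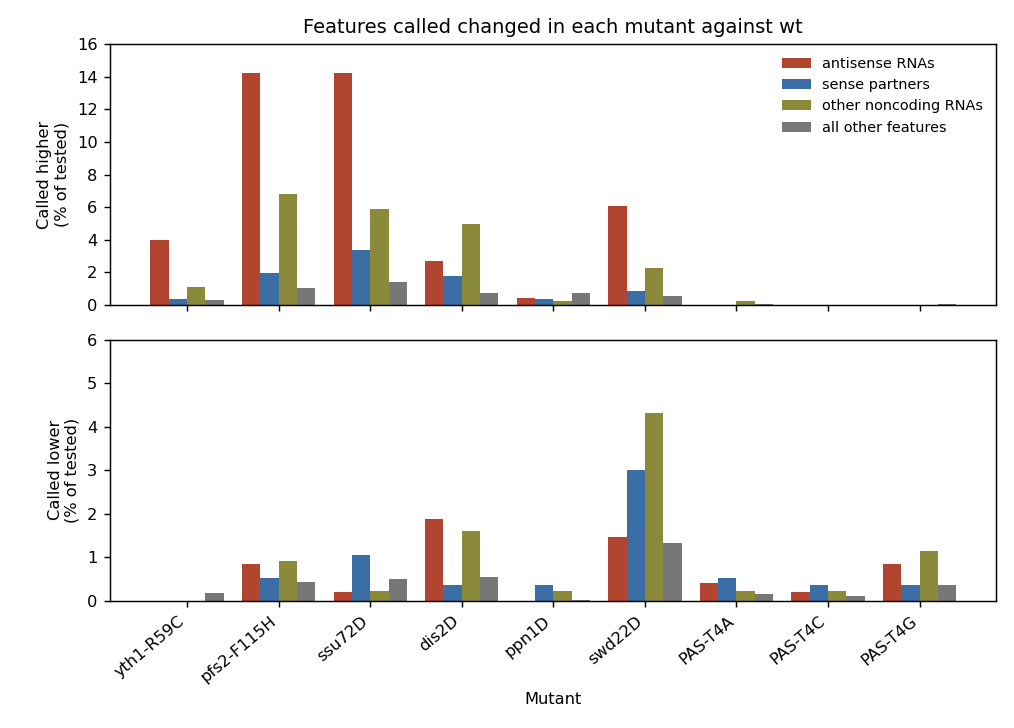
Percentage of the tested antisense RNAs, sense partners, other noncoding RNAs and all other features that were called higher (top) or lower (bottom) in each mutant against wt. Antisense RNAs called higher reach 14.2% in both pfs2-F115H and ssu72D, against 1.94% and 3.36% of the sense partners.

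In pfs2-F115H, 68 antisense RNAs were higher and 4 lower than in wt, which is 15.0% of the 479 tested and 11.3% of the 635. Over all features tested, 3.13% were called (2.62% higher and 0.508% lower). In ssu72D, 68 antisense RNAs were higher and 1 was lower (14.4% of the tested and 10.9% of the 635), beside 3.47% of all features (2.96% higher and 0.508% lower). In swd22D, 29 were higher and 7 lower (7.52% and 5.67%), beside 2.89% of all features (1.17% higher and 1.73% lower). In yth1-R59C 19 were higher and 0 lower (3.97% and 2.99%), beside 0.812% (0.677% higher and 0.135% lower). By limma at an unadjusted p under 0.05, 3 antisense RNAs were lower in yth1-R59C, while edgeR called 1 and DESeq2 called 0 lower. In dis2D the directions were mixed, with 13 higher and 9 lower (4.59% and 3.46%), beside 2.01% (1.30% higher and 0.711% lower).

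The remaining comparisons gave few calls. In the libraries labelled ppn1D, 2 antisense RNAs were higher and 0 lower (0.418% of the tested and 0.315% of the 635, beside 0.711% of all features, 0.643% higher and 0.0677% lower). Of the antisense RNAs tested there, 14 were lower at an unadjusted p under 0.05, and edgeR called 5 and DESeq2 1 lower. In summed antisense RNA the libraries labelled ppn1D, at 4254, 3367 and 3657 CPM, spread more than wt (SD 452 against 195 CPM). The part of this spread in the few calls was not tested. In PAS-T4A 2 were lower (0.418% and 0.315%, beside 0.288%, of which 0.220% lower and 0.0677% higher), in PAS-T4C 1 (0.209% and 0.157%, beside 0.169%, of which 0.152% lower and 0.0169% higher) and in PAS-T4G 4 (0.835% and 0.630%, beside 0.524%, of which 0.457% lower and 0.0677% higher), and 0 were higher in any of the 3. At an unadjusted p under 0.05, 12, 12 and 24 antisense RNAs were higher in PAS-T4A, PAS-T4C and PAS-T4G, while edgeR called 0, 0 and 2 higher and DESeq2 0 in each. The unadjusted counts are not read as increases, for want of the share of all features at that threshold.

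The antisense RNAs took a large share of all calls. They made up 39.6% of the features called in yth1-R59C, 38.9% in pfs2-F115H, 33.7% in ssu72D, 21.1% in swd22D and 18.5% in dis2D, while they are 479 of the 5911 features tested. Other noncoding RNAs, of which 440 of 891 were tested, gave these numbers called higher: 30 in pfs2-F115H, 26 in ssu72D, 10 in swd22D and 5 in yth1-R59C and 22 in dis2D. In dis2D these 22 of 440 were a larger share than the 13 of 479 antisense RNAs called higher. In pfs2-F115H, ssu72D, swd22D and yth1-R59C the antisense RNAs had the larger share. Over all 621 antisense RNAs with any read, the median change without the filter on low values was 0.42 in ssu72D, 0.35 in pfs2-F115H, 0.27 in yth1-R59C, 0.17 in dis2D and 0.09 in swd22D (log2). The medians over all features with any read were 0.03, 0.12, 0.09, 0.08 and -0.04 in the same order of strains.

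The sense partners gave fewer calls. In pfs2-F115H 11 were higher and 3 lower (2.47% of 566), in ssu72D 19 and 6 (4.42%), in dis2D 10 and 2 (2.12%), in swd22D 5 and 17 (3.89%), and in yth1-R59C 2 and 0 (0.353%). These shares lie beside the 3.13%, 3.47%, 2.01%, 2.89% and 0.812% of all features called in those mutants. In the libraries labelled ppn1D 2 were higher and 2 lower (0.707%, beside 0.711%), and in PAS-T4A, PAS-T4C and PAS-T4G 3, 2 and 2 were lower (0.530%, 0.353% and 0.353%, beside 0.288%, 0.169% and 0.524%). For the 0 sense partners lower in yth1-R59C, 21 were lower at an unadjusted p under 0.05, and edgeR called 4 and DESeq2 3 lower.

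The yth1 point mutant raised antisense RNAs of hsp3101 and of the cell cycle gene cig2 most. hsp3101-antisense-1 (chrIII:47513-48882, + strand), which covers 84.0% of hsp3101, a gene annotated as a glyoxylase III, had 27.8, 26.9 and 30.4 CPM in yth1-R59C, against 6.02, 5.36 and 5.12 CPM in wt. All mutant libraries lay far above the wt libraries (log2 fold change 2.18 ± 0.24 SE, adjusted p = 1.99e-07 by limma). hsp3101 itself had 8.23, 7.39 and 7.08 CPM in yth1-R59C, against 11.8, 9.77 and 8.89 CPM in wt, which was not a significant change (-0.37 ± 0.31 SE, adjusted p = 0.571). The antisense RNA had fewer reads than hsp3101 in each wt library and more in each yth1-R59C library.

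cig2-antisense-1 (chrI:2710681-2712634, - strand) covers 44.6% of cig2, a B-type cyclin of the G1/S transition. It had 8.74, 8.98 and 14.2 CPM in yth1-R59C, against 2.76, 2.52 and 1.35 CPM in wt (1.86 ± 0.30 SE). The sense gene cig2 did not differ, with 54.0, 69.7 and 60.7 CPM in yth1-R59C and 64.0, 67.8 and 51.7 CPM in wt. The gene 70 bases upstream, pmc1, a calcium-transporting ATPase, had 118, 135 and 146 CPM in yth1-R59C, against 96.8, 98.5 and 95.3 CPM in wt, a change of 0.45 that passed the adjusted p (0.0036) but not the 2-fold minimum.

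The other antisense RNAs of the 6 largest in yth1-R59C crossed pgp2 (1.78), SPCC1322.02 (1.78), sec16 (1.65) and smc6 (1.52). sec16, a vesicle coat component, was one of the more abundant sense genes here, at 259, 277 and 283 CPM in yth1-R59C and 246, 267 and 266 CPM in wt, whereas sec16-antisense-1 had 23.7, 26.4 and 24.4 CPM in yth1-R59C, against 10.03, 4.41 and 8.35 CPM in wt. smc6, a subunit of the Smc5-6 complex, had 169, 176 and 152 CPM in yth1-R59C and 153, 145 and 145 CPM in wt. The pgp2 call was lost without wt replicate 2 (log2 change 1.51, adjusted p = 0.106) and without yth1-R59C replicates 1 or 3. No partner row for pgp2 was in the table. The 2 sense partners called higher, mcp4 (1.20, named for meiosis) and the ammonium transporter amt3 (1.13), kept their size but not their adjusted p without single libraries. amt3 lost its call without any 1 of the 6 libraries (log2 change 1.01 to 1.27, adjusted p 0.056 to 0.151), and mcp4 in 5 of those 6 fits (1.12 to 1.34 over the 6, adjusted p 0.072 to 0.134 in the 5).

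With all libraries reduced to the same 1031839 reads, 12 antisense RNAs were called in yth1-R59C. The count was also 12 without wt replicate 2, which is the deepest wt library, and 31 by edgeR's quasi-likelihood test on the reads recovered from the CPM values. Of these 31, 30 were higher. For none of these settings is the share of all features called given, so the counts are not read as particular to antisense RNAs. The cig2-antisense-1 call was lost at equal depth (1.34, adjusted p = 0.127).

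The largest change of an antisense RNA in pfs2-F115H was over abc1. abc1-antisense-1 (chrII:3001074-3003417, - strand) covers the whole of abc1, whose product is an ABC1 kinase family ATPase of ubiquinone synthesis. It had 86.5, 66.7 and 76.8 CPM in pfs2-F115H, against 7.52, 5.52 and 8.35 CPM in wt, and every mutant library lay roughly an order of magnitude above wt (3.26 ± 0.24 SE, adjusted p = 4.8e-12). The sense gene abc1 fell to 63.6, 47.9 and 66.2 CPM in pfs2-F115H, against 86.0, 85.7 and 73.5 CPM in wt (-0.47 ± 0.11 SE, adjusted p = 0.00357, short of 2-fold). In the other strains abc1-antisense-1 followed at a distance, with 27.8, 16.9 and 22.5 CPM in yth1-R59C and 15.95, 18.3 and 14.1 CPM in ssu72D, while the sense gene stayed between 82.9 and 92.5 CPM there. The upstream gene alb1, a ribosome biogenesis factor whose end overlaps the start of this antisense RNA by 66 bases, had 32.9, 21.5 and 19.9 CPM in pfs2-F115H and 17.1, 17.8 and 18.9 CPM in wt.

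SPAC1B3.04c-antisense-2 rose while its sense gene fell. Its partner SPAC1B3.04c is named guf1 and encodes a GTPase, 97.3% of which the antisense RNA covers. The antisense RNA had 12.3, 15.6 and 10.6 CPM in pfs2-F115H, against 1.505, 1.73 and 0.808 CPM in wt (2.56 ± 0.35 SE, adjusted p = 2.09e-06). guf1 fell to 6.13, 4.84 and 2.91 CPM in pfs2-F115H, against 27.3, 27.7 and 32.9 CPM in wt (-2.47 ± 0.20 SE, adjusted p = 5.53e-11). In wt the sense RNA was the more abundant of the pair in each library, and in pfs2-F115H the antisense RNA was.

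The guf1 pair moved the same way in ssu72D and swd22D. In ssu72D the antisense RNA had 7.89, 9.51 and 10.7 CPM (2.15 ± 0.35 SE) and guf1 9.47, 9.74 and 6.82 CPM (-1.66 ± 0.20 SE). In swd22D they had 6.36, 4.85 and 6.94 CPM (1.60 ± 0.35 SE) and 13.4, 14.5 and 10.4 CPM (-1.15 ± 0.20 SE). In yth1-R59C guf1 had 12.9, 20.1 and 14.0 CPM (-0.89 ± 0.20 SE, adjusted p = 0.00587, short of 2-fold), while the antisense RNA, at 3.09, 7.39 and 2.65 CPM, did not pass (1.11, adjusted p = 0.0703). The values of dis2D, of the libraries labelled ppn1D and of the 3 reporter mutants stayed between 21.8 and 32.9 CPM for guf1. These are separate comparisons with the same wt libraries. The RNA that ends 21 bases upstream is itself an antisense RNA, wis2-antisense-1, which had 3.06, 2.15 and 1.32 CPM in pfs2-F115H and 1.76, 0.946 and 1.35 CPM in wt. The other annotated antisense RNA of guf1, SPAC1B3.04c-antisense-1, had 0 reads in all 30 libraries.

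The other antisense RNAs of the 6 largest in pfs2-F115H crossed SPBC365.11 (2.49), hsp3101 (2.42), cig2 (2.22) and mdl1 (2.18). SPBC365.11 is named grp2 and encodes a Golgi protein, which had 62.0, 53.8 and 44.2 CPM in pfs2-F115H and 56.4, 59.6 and 51.4 CPM in wt. Its antisense RNA had 19.1, 26.9 and 19.1 CPM in pfs2-F115H, against 3.76, 2.36 and 2.96 CPM in wt. mdl1, an ABC transporter of peptides, had 169, 173 and 167 CPM in pfs2-F115H and 158, 163 and 168 CPM in wt, while mdl1-antisense-1 had 29.9, 26.9 and 34.2 CPM, against 6.02, 5.67 and 5.92 CPM in wt. Only 1 pair rose on both strands. num1, which anchors dynein at the cell cortex, had 41.3, 41.4 and 34.7 CPM in pfs2-F115H, against 17.8, 20.5 and 13.7 CPM in wt (1.14 ± 0.20 SE, and 0.99 without wt replicate 3), and num1-antisense-1 had 19.9, 16.1 and 14.8 CPM, against 8.53, 6.30 and 7.002 CPM (1.12 ± 0.28 SE). Among sense partners, the largest changes beside that of guf1 were those of amt3 (1.89) and SPBPB21E7.08 (1.83).

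In ssu72D the largest increase was that of the antisense RNA over SPAC26A3.17c, named rmt2, a methyltransferase gene. SPAC26A3.17c-antisense-1 (chrI:3371461-3372746, + strand) begins 77 bases after the end of dsk2 and had 14.7, 16.9 and 22.9 CPM in ssu72D, against 0.251, 1.10 and 1.08 CPM in wt, where it was close to the level of a few reads (3.42 ± 0.38 SE, adjusted p = 3.26e-08). The sense gene had 62.2, 64.5 and 67.7 CPM in ssu72D and 71.7, 76.3 and 76.8 CPM in wt, which did not pass (-0.21, adjusted p = 0.304). In swd22D the same antisense RNA reached 4.46, 2.91 and 4.63 CPM (1.49 ± 0.38 SE) and rmt2 fell to 29.9, 36.8 and 27.2 CPM (-1.24 ± 0.13 SE, adjusted p = 7.9e-09). The swd22D call of the antisense RNA was lost with a pseudocount of 0.1 (adjusted p = 0.0698). dsk2, a ubiquitin-binding protein, had 180, 184 and 190 CPM in ssu72D and 162, 160 and 157 CPM in wt (0.21, adjusted p = 0.126).

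The others of the 6 largest in ssu72D crossed guf1 (2.15), SPBC365.11 (2.05), hrp1 (2.03), pof14 (2.03) and rpn10 (1.90). hrp1, a CHD family chromatin remodeller that is itself among factors known to limit antisense RNA, had 256, 251 and 274 CPM in ssu72D and 279, 294 and 259 CPM in wt, and its antisense RNA 8.06, 10.9 and 10.2 CPM, against 1.00, 2.05 and 1.89 CPM. pof14-antisense-1 had 29.1, 36.4 and 28.7 CPM in ssu72D, against 9.53, 3.15 and 10.2 CPM in wt, and outnumbered pof14, an F-box protein gene, which had 12.4, 10.9 and 11.2 CPM in ssu72D. rpn10, a proteasome subunit gene, did not differ, at 102, 83.5 and 92.0 CPM in ssu72D and 92.8, 88.3 and 80.3 CPM in wt.

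Among the called pairs of ssu72D, meu18 was the only one whose antisense RNA fell. meu18-antisense-1 had 5.96, 9.27 and 4.87 CPM in ssu72D, against 14.3, 14.7 and 15.9 CPM in wt (-1.09 ± 0.22 SE, adjusted p = 0.000396, and -0.91 without ssu72D replicate 3), and meu18, a gene named for upregulation in meiosis, had 101, 106 and 119 CPM, against 53.2, 49.0 and 49.6 CPM in wt (1.09 ± 0.12 SE, adjusted p = 7.89e-08). rec12, whose product makes the DNA breaks of meiotic recombination, showed the opposite order. It had 1.75, 2.32 and 0.487 CPM in ssu72D, against 4.51, 4.41 and 4.31 CPM in wt (-1.18), and rec12-antisense-1 had 6.49, 4.87 and 7.30 CPM, against 2.26, 2.21 and 3.23 CPM (1.01). Both calls were lost without ssu72D replicate 3 (adjusted p 0.115 for the antisense RNA and 0.137 for rec12), and that of the antisense RNA also without wt replicate 1 or 2 or ssu72D replicate 1 (0.073 to 0.091).

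The 3 sense partners that changed most in ssu72D were cta3, a calcium ATPase gene (22.4, 24.1 and 25.8 CPM in ssu72D, against 2.01, 1.58 and 2.42 CPM in wt), ddr48 (114, 185 and 234 CPM, against 35.6, 26.95 and 29.9 CPM) and fub2. fub2 had no read in wt and 2.45, 4.41 and 4.38 CPM in ssu72D, at least 17.5-fold higher when wt is set at 3 reads over its 3 libraries. With equal depth in all libraries 45 antisense RNAs were called in ssu72D, and edgeR called 113, of which 110 were higher. The share of all features called under these settings is not given, so these counts are not read as particular to antisense RNAs.

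In dis2D both strands of grt1 rose together. grt1, a transcription factor gene at chrII:47369-51181, had 54.0, 71.1 and 63.6 CPM in dis2D, against 8.53, 3.15 and 5.39 CPM in wt (3.33 ± 0.38 SE, adjusted p = 9.16e-08). grt1-antisense-1 (chrII:50110-52193, + strand), which covers 28.1% of it, had 37.3, 36.3 and 29.2 CPM in dis2D, against 2.51, 0.473 and 1.08 CPM in wt (3.99 ± 0.39 SE, adjusted p = 2e-09). In pfs2-F115H, ssu72D and swd22D grt1 was called lower (-1.58, -1.34 and -1.26), and its antisense RNA was not called there. eno102, an enolase gene at chrII:58136-59690, had an antisense RNA at 37.3, 29.7 and 27.7 CPM in dis2D, against 5.77, 8.04 and 7.27 CPM in wt (2.02), while eno102 itself, at 32.8, 42.4 and 41.2 CPM in dis2D and 27.1, 21.0 and 21.8 CPM in wt, did not pass (adjusted p = 0.254).

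dis2D was also the mutant with the most antisense RNAs called lower. Of the 9, the largest changes were over rrn5, an RNA polymerase I factor (-1.59), tif211, the eIF2 alpha subunit (-1.53), and end4, a clathrin adaptor (-1.43). end4-antisense-1 had 7.07, 3.77 and 5.99 CPM in dis2D, against 16.3, 16.6 and 16.2 CPM in wt, while end4 had 316, 319 and 316 CPM in dis2D and 377, 364 and 329 CPM in wt (-0.17, adjusted p = 0.076). tif211-antisense-1 fell in swd22D too (-1.52). Its dis2D call was lost without wt replicate 1 or 2 or dis2D replicate 2 or 3 (adjusted p 0.067 to 0.112), and its swd22D call without wt replicate 1 or 2 or swd22D replicate 2 (0.068 to 0.174). SPBC1271.08c, of unknown function, rose on both strands, at 20.6, 24.96 and 24.7 CPM in dis2D, against 8.78, 7.88 and 9.43 CPM in wt for the gene, and 18.6, 17.9 and 28.4 CPM, against 8.03, 8.98 and 4.04 CPM, for its antisense RNA. The largest sense changes beside grt1 were those of SPBPB21E7.08 (2.83) and cta3 (2.51). At equal depth the calls of rrn5-antisense-1 and end4-antisense-1 were lost (adjusted p 0.0683 and 0.124). Without dis2D replicate 3, the count of antisense RNAs called was 14, 7 in each direction, with no share of all features in that fit beside it.

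In dis2D and swd22D, SPAC56F8.12, of unknown function, was higher on the sense strand and lower on the antisense strand. Its antisense RNA had 7.71, 9.42 and 11.2 CPM in dis2D and 10.8, 4.85 and 13.3 CPM in swd22D, against 25.8, 15.4 and 23.7 CPM in wt (-1.10 and -1.15). The gene had 2.57, 2.83 and 2.99 CPM in dis2D and 1.91, 4.85 and 2.89 CPM in swd22D, against 0.502, 0.315 and 0.269 CPM in wt (1.48 and 1.57). The antisense RNA stayed the more abundant strand except in swd22D replicate 2, where the values were equal. In ssu72D the gene was higher as well, at 5.08, 5.10 and 5.36 CPM (2.19, adjusted p = 7.16e-05), but its antisense RNA did not pass (0.03, adjusted p = 0.961). The antisense change fell short of 2-fold without dis2D replicate 1 or wt replicate 1 in dis2D (-0.97 and -0.96) and without swd22D replicate 2 in swd22D (-0.77). The gene's calls rested on few reads: with a pseudocount of 0.1 its adjusted p was 0.097 in dis2D and 0.059 in swd22D.

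In swd22D the deleted locus itself headed the list. SPAC824.04 is swd22, and with the gene at 0 reads SPAC824.04-antisense-1 had 15.3, 12.6 and 15.0 CPM in swd22D, against 1.505, 1.26 and 2.69 CPM in wt (2.47 ± 0.44 SE). In the reference this antisense RNA spans the whole of swd22, 1801 bases against 1450, which the strain lacks at least in part, so the value counts reads on what is left of the locus. Without this pair 35 antisense RNAs and 21 sense partners were called in swd22D. Next came the antisense RNAs of SPAC19B12.01, a gene for a TPR repeat protein (1.72), guf1 (1.60), nht1 (SPAC10F6.08c, a subunit of the Ino80 chromatin remodeller, 1.50) and atd3, an aldehyde dehydrogenase gene (1.49). SPAC19B12.01-antisense-1 had 10.2, 12.6 and 13.3 CPM in swd22D, against 2.26, 2.05 and 5.12 CPM in wt, and the gene 183, 173 and 176 CPM, against 189, 215 and 225 CPM in wt (-0.23, adjusted p = 0.0359). SPAC10F6.08c-antisense-1 lost its call without wt replicate 1 or swd22D replicate 3 (adjusted p 0.057 in each).

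More sense partners fell than rose in swd22D. Beside swd22, the largest decreases were those of eno102 (3.18, 0 and 1.74 CPM in swd22D, against 27.1, 21.0 and 21.8 CPM in wt) and SPAC1F8.04c (5.73, 4.85 and 2.31 CPM, against 30.9, 30.3 and 18.04 CPM in wt). slx4, the scaffold subunit of a structure-specific endonuclease, fell to 5.73, 6.78 and 4.63 CPM in swd22D, against 15.6, 10.7 and 11.3 CPM in wt (-1.01), while slx4-antisense-1 rose to 8.27, 16.5 and 14.5 CPM, against 4.01, 3.94 and 5.92 CPM (1.29). The slx4 call was lost without wt replicate 1 or swd22D replicate 3 (adjusted p 0.078 and 0.057).

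**Figure D3:**
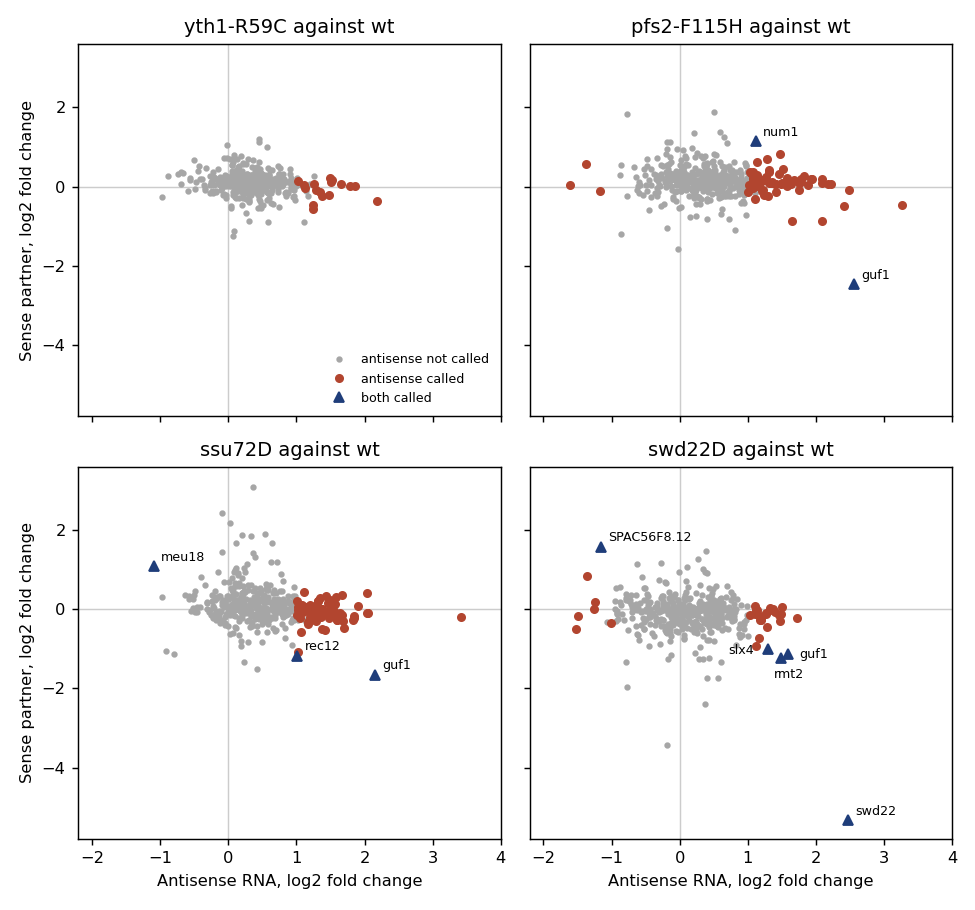
Change of each antisense RNA (x axis) against the change of its sense partner (y axis), both as log2 fold change of the mutant over wt, for the 436 pairs with both features tested. Most antisense RNAs called higher sit near 0 on the sense axis, and guf1 lies below -1 in pfs2-F115H, ssu72D and swd22D.

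Few pairs had a called sense gene beside an antisense RNA called higher, and the share differed between mutants. Of the 68 antisense RNAs called higher in pfs2-F115H, 64 had a tested partner, of which 1 (num1) was called higher and 1 (guf1) lower, near the 2.47% of all tested sense partners called there. In ssu72D 65 had one, of which 2 were lower (guf1 and rec12), beside 4.42% of all partners. In swd22D 28 had one, of which 4 were lower (guf1, rmt2, slx4 and the deleted swd22), a larger share than the 3.89% of all partners. In yth1-R59C 0 of 17 tested partners were called by limma, 2 were lower at an unadjusted p under 0.05, and edgeR and DESeq2 called 0. In dis2D, 2 of 13 were higher (grt1 and SPBC1271.08c), also a larger share than the 2.12% of all partners. The partner's median log2 change was 0.09 in pfs2-F115H, -0.09 in ssu72D, -0.15 in swd22D, 0.01 in yth1-R59C and 0.19 in dis2D, beside 0.15, 0.01, -0.09, 0.10 and 0.14 over all 436 tested pairs. Partners below 0 numbered 15 of 64 in pfs2-F115H, 44 of 65 in ssu72D, 25 of 28 in swd22D, 8 of 17 in yth1-R59C and 6 of 13 in dis2D, beside 118, 205, 284, 125 and 125 of 436 over all tested pairs. As a description over the 436 pairs, which share libraries and neighbours, Pearson's r between the changes of the 2 strands was -0.16 in pfs2-F115H, -0.19 in ssu72D, -0.19 in swd22D, -0.15 in yth1-R59C and 0.10 in dis2D. Spearman's rho was -0.13, -0.21, -0.11, -0.14 and -0.0097 in the same order, so swd22D and dis2D were weaker by rank. The swd22D pairs include the deleted swd22.

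The difference between the strands was also computed within each library, as log2(antisense CPM + 1) minus log2(sense CPM + 1). For 42 of the 45 named pairs and mutants, the 3 mutant libraries did not overlap the 3 wt libraries in this difference (exact two-sided permutation p = 0.1, the smallest that 3 against 3 can give). These pairs were named because a strand was already called against the same wt libraries, so this count is a description. It moved by 5.03 for guf1 in pfs2-F115H, 3.81 in ssu72D and 2.74 in swd22D, by 3.73 for abc1 in pfs2-F115H, by 2.55 for hsp3101 in yth1-R59C and by 3.63 for rmt2 in ssu72D. The 3 pairs with overlap were num1 in pfs2-F115H (-0.03), SPBC1271.08c in dis2D (0.20) and imt2 in the libraries labelled ppn1D (0.27), in which both strands were higher than in wt.

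**Figure D4:**
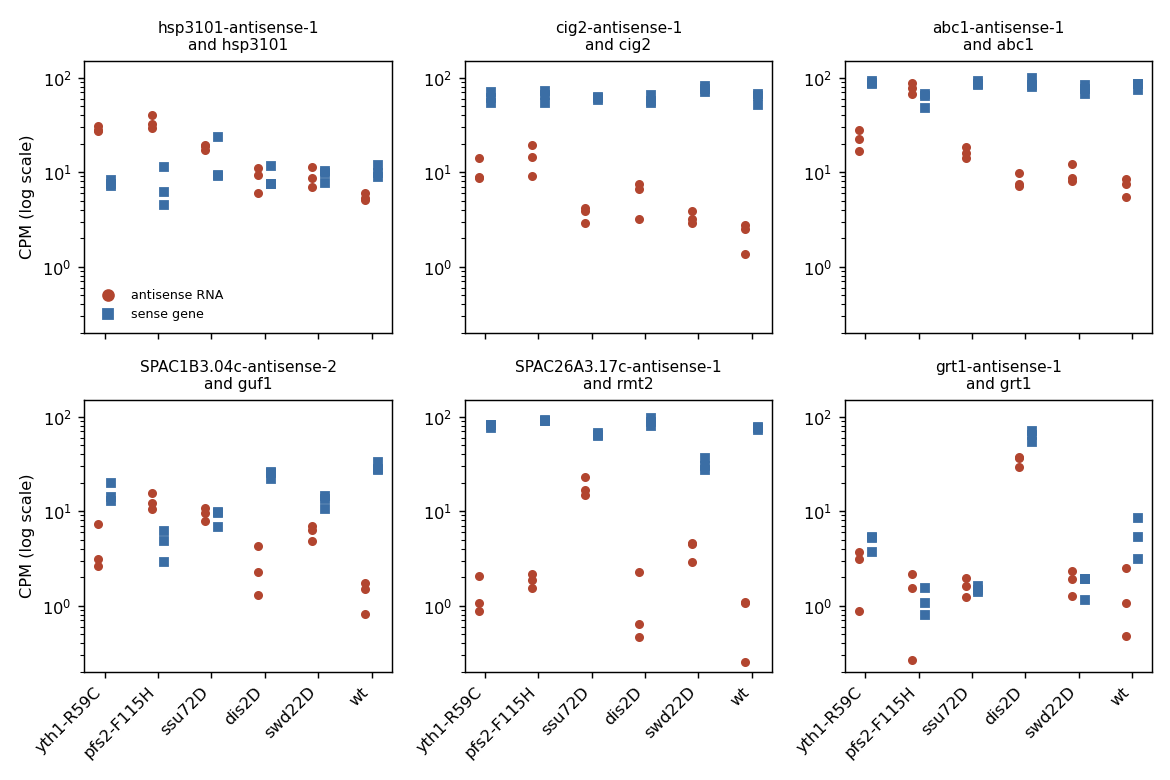
CPM of 6 antisense RNAs (circles) and their sense genes (squares) in each library of 5 mutants and wt, on a log axis. For hsp3101, cig2 and abc1 the circles are higher in yth1-R59C and pfs2-F115H than in wt, for guf1 the strands change order in pfs2-F115H, and for grt1 both strands are higher in dis2D.

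The antisense RNAs called in the most mutants, 4 each, were those of sec16, cwf28, SPBC337.10c, swi3, SPBC365.11 and SPAC19B12.01. cwf28-antisense-1, over a splicing factor gene, had 22.6, 19.0 and 22.5 CPM in yth1-R59C, 22.2, 19.4 and 26.5 CPM in pfs2-F115H, 16.8, 24.6 and 24.3 CPM in ssu72D and 16.5, 19.4 and 20.8 CPM in swd22D, against 10.03, 5.67 and 5.66 CPM in wt. These 4 strains did not overlap wt. It had 8.99, 11.3 and 12.7 CPM in dis2D, 7.48, 5.80 and 6.68 CPM in the libraries labelled ppn1D and 4.08 to 10.6 CPM in the 3 reporter mutants, which all overlapped wt. swi3-antisense-1, over a replication fork protection gene, ran in the same order of strains at 10.6 to 14.3, 11.8 to 15.3, 12.1 to 19.5 and 8.91 to 12.2 CPM, against 2.21 to 6.46 CPM in wt. SPBC337.10c-antisense-1 differed in that dis2D (14.1, 10.8 and 18.7 CPM, 1.07) and not yth1-R59C (12.3, 8.98 and 12.7 CPM, 0.75) was among its 4, against 8.03, 4.89 and 6.19 CPM in wt. SPAC19B12.01-antisense-1 was higher in pfs2-F115H (2.09), ssu72D (1.40) and swd22D (1.72) and lower in PAS-T4G (0.556, 0.965 and 0.530 CPM, against 2.26, 2.05 and 5.12 CPM in wt). That last call was lost without wt replicate 3 (-0.91, adjusted p = 0.160) and without PAS-T4G replicate 1 or 3.

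The reporter mutants and the libraries labelled ppn1D gave few named pairs, and some of these calls were lost without single libraries. In the libraries labelled ppn1D the 2 antisense RNAs called higher were those of imt2, a mannosyltransferase gene (43.4, 25.8 and 28.1 CPM, against 15.6, 13.7 and 10.8 CPM in wt), and SPAC9.08c, a steroid reductase gene (47.4, 30.0 and 18.2 CPM, against 17.3, 10.9 and 14.8 CPM in wt). The SPAC9.08c call was lost without ppn1D replicate 1 (0.69, adjusted p = 0.178) and without wt replicate 2 (0.85, 0.137), and at equal depth neither call held (adjusted p 0.142 for imt2 and 0.171 for SPAC9.08c). The sense partners named for these libraries, SPBC1271.07c (-1.13), SPCC70.08c (-1.08) and ams2, a GATA-type transcription factor (1.04), kept an adjusted p under 0.05 in each fit without 1 library, but without ppn1D replicate 1 all 3 fell just short of 2-fold (-0.99, -0.997 and 0.99), as did SPCC70.08c without wt replicate 2 (-0.98) and imt2-antisense-1 without ppn1D replicate 1 (0.97). On the other strand, ams2-antisense-1 was higher in these libraries but short of 2-fold (0.90, adjusted p = 0.0363 by limma). SPCC70.08c-antisense-1 (0.41, adjusted p = 0.740) and SPBC1271.07c-antisense-1 (-0.05, 0.994) did not pass. In PAS-T4A the antisense RNA of epe1, a JmjC domain protein that limits heterochromatin, had 3.52, 2.00 and 3.22 CPM, against 9.78, 6.15 and 7.27 CPM in wt (-1.16, adjusted p = 0.0449), a call lost without any 1 of the 6 libraries (0.067 to 0.180), and that of SPAC1834.13 (-1.14) was lost without wt replicate 1 or PAS-T4A replicate 1. epe1 itself had 85.3, 79.2 and 65.7 CPM in PAS-T4A and 74.5, 72.0 and 62.8 CPM in wt. ctf8-antisense-1 in PAS-T4C (-1.24) lost its call in 4 of 6 such fits, and top3-antisense-1, SPBC21C3.07c-antisense-1 and rav1-antisense-1 in PAS-T4G (-1.13, -1.12 and -1.11) in 5, 4 and 3. The sense partners called lower were dal1, tfb5 and mtq1 in PAS-T4A (-1.04, -1.03 and -1.01), eno102 and cao2 in PAS-T4C (-1.37 and -1.31), and SPBC1773.12 and yth1 in PAS-T4G (-1.60 and -1.10). Of these, mtq1, SPBC1773.12 and yth1 kept an adjusted p under 0.05 without any 1 library, but mtq1 fell short of 2-fold without wt replicate 1 or 2 or PAS-T4A replicate 3 (-0.97, -0.99 and -0.89), and yth1 without wt replicate 1 or PAS-T4G replicate 2 (-0.99 and -0.98).

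yth1 is itself one of the sense partners. It had 7.22, 4.82 and 5.83 CPM in PAS-T4G, 10.1, 8.28 and 6.02 CPM in PAS-T4C and 7.75, 10.6 and 9.66 CPM in PAS-T4A, against 16.1, 15.0 and 10.8 CPM in wt, and 14.4, 13.7 and 12.7 CPM in yth1-R59C. yth1-antisense-1 was not called in any mutant and had 3.89, 5.79 and 4.77 CPM in PAS-T4G and 3.09, 6.34 and 5.48 CPM in yth1-R59C, against 4.26, 4.57 and 4.04 CPM in wt.

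In pfs2-F115H, ssu72D, swd22D and yth1-R59C, the antisense RNAs called higher began nearer to the end of the upstream gene on the same strand than those tested did as a whole. The distance was taken between the annotated 3′ end of that gene and the annotated start of the antisense RNA, negative where they overlap, and the 200-base limit and the bins were chosen after the values were seen. Over the 478 tested antisense RNAs with a position, the median distance was 1319 bases, and 25.7% began within 200 bases of an upstream end. For those called higher, the median was 70 bases in yth1-R59C (10 of 19 within 200 bases), 206 in ssu72D (33 of 68), 362.5 in pfs2-F115H (27 of 68), 389 in swd22D (12 of 29) and 1245 in dis2D (2 of 13). Those called lower were fewer and were near as well in some mutants, with 4 of 7 within 200 bases in swd22D (median 136), 3 of 4 in PAS-T4G (122.5) and 3 of 9 in dis2D (917), against 0 of 4 in pfs2-F115H, of which 3 had a position. Read the other way, 26.8% of the antisense RNAs within 200 bases were called higher in ssu72D, against 9.86% of the 355 farther away, and 22.0% against 11.5% in pfs2-F115H, 9.76% against 4.79% in swd22D, 8.13% against 2.54% in yth1-R59C, and 1.63% against 3.10% in dis2D. These are descriptions with no test, since neighbouring features are not independent.

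**Figure D5:**
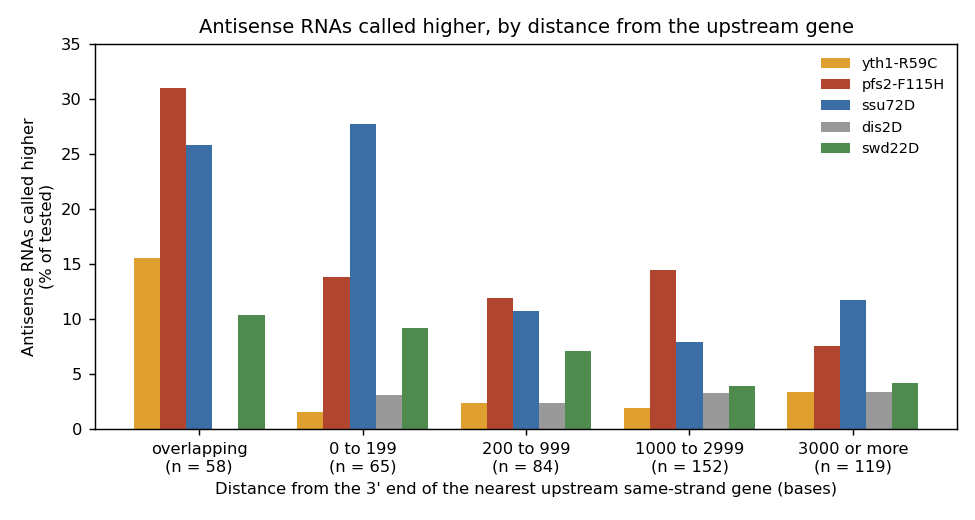
Percentage of tested antisense RNAs called higher, by the distance of their start from the 3′ end of the nearest upstream gene on the same strand, in 5 mutants. In the bin of 58 antisense RNAs that overlap the upstream gene, 31.0% were called higher in pfs2-F115H, 25.9% in ssu72D and 15.5% in yth1-R59C; in the next bin, up to 199 bases, 27.7% were called higher in ssu72D and 1.54% in yth1-R59C.

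The 2 nearest bins differed between mutants. Of the 58 antisense RNAs whose start overlaps the upstream gene, 18 were higher in pfs2-F115H, 15 in ssu72D, 9 in yth1-R59C and 6 in swd22D. Of the 65 that start 0 to 199 bases beyond it, 18 were higher in ssu72D, 9 in pfs2-F115H, 6 in swd22D and 1 in yth1-R59C. The overlapping antisense RNAs were also the more abundant in wt (median 7.47 CPM, against 2.41 CPM for those 0 to 199 bases away), and the part of the abundance in these counts was not tested. Reads in the overlap of 2 features on 1 strand were not counted by the authors, so the values of these RNAs come from beyond the overlap.

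RefSeq describes 95 of the 621 matched antisense RNAs as a possible alternative UTR of another gene, and 87 of these were tested. Of the 87, 26.4% were called higher in pfs2-F115H, 21.8% in ssu72D, 10.3% in yth1-R59C, 9.20% in swd22D and 2.30% in dis2D, against 11.5%, 12.5%, 2.55%, 5.36% and 2.81% of the 392 not so described. The 2 groupings overlap: 39 of the 95 overlap an upstream gene and their median distance was 109 bases, against 21 of 525 and 1547 bases for the others. abc1-antisense-1, SPBC365.11-antisense-1 and pof14-antisense-1 overlapped their upstream genes by 66, 61 and 28 bases, whereas SPAC26A3.17c-antisense-1 and mdl1-antisense-1 began 77 and 28 bases after them.

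Few upstream genes were called in 4 mutants, near or below the share of all features, while dis2D had 2 called among 13. Beside the antisense RNAs called higher, the median log2 change of the tested upstream genes was 0.11 in pfs2-F115H (64 tested), 0.03 in ssu72D (65), -0.02 in swd22D (29), 0.08 in yth1-R59C (18) and 0.25 in dis2D (13), and 1, 1, 0, 0 and 2 of them were called higher and 1 in ssu72D lower. Over all tested antisense RNAs the medians of the upstream genes were 0.12, 0.03, -0.02, 0.10 and 0.10. Of the 440 upstream genes tested there, 8, 10, 3, 1 and 4 were called higher and 1, 5, 13, 0 and 2 lower. Over all features, 2.62%, 2.96%, 1.17%, 0.677% and 1.30% were called higher in the same order. In the libraries labelled ppn1D, 3 of the 440 were higher. fah1, 1039 bases upstream of grt1-antisense-1, had 14.8, 10.8 and 15.0 CPM in dis2D, against 0.752, 1.10 and 0.269 CPM in wt (3.11, adjusted p = 4.97e-06). In the libraries labelled ppn1D 1 of 2 upstream genes was called, ptc1, a protein phosphatase gene 1679 bases upstream of imt2-antisense-1, with 109, 118 and 111 CPM, against 50.7, 45.9 and 45.5 CPM in wt (1.23, adjusted p = 8.01e-11). In wt the upstream genes had a median of 72.2 CPM in yth1-R59C, 69.2 CPM in swd22D, 58.7 CPM in ssu72D, 56.6 CPM in pfs2-F115H and 16.8 CPM in dis2D (wt values of the genes upstream of the antisense RNAs called in each), against 36.4 CPM for the genes upstream of all tested antisense RNAs.

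Antisense RNAs over genes with meiotic names (mug, meu, mde, spo, rec and similar) were called in pfs2-F115H and ssu72D. Of the 40, 34 were tested, and 2 were higher in pfs2-F115H (5.88%, beside 3.13% of all features and 15.0% of all antisense RNAs tested), 3 higher and 1 lower in ssu72D (11.8%, beside 3.47% and 14.4%), and 0 called in the other mutants by limma. At an unadjusted p under 0.05, 5 were higher in yth1-R59C, 3 in dis2D and 4 in swd22D, while edgeR called 0 in those mutants and DESeq2 0, except 1 lower in PAS-T4G. Their 37 sense genes, of which 29 were tested, gave 5 higher and 1 lower in ssu72D (20.7%, beside 3.47% of all features), 2 higher in pfs2-F115H (6.90%, beside 3.13%), 1 higher in yth1-R59C (3.45%, beside 0.812%) and 1 lower in swd22D (3.45%, beside 2.89%). Of 30 genes known to limit antisense RNA (among them the exosome subunits rrp6 and dis3, the RNA interference genes ago1, dcr1 and rdp1, and the chromatin factors clr4, clr6, set2 and spt6), 0 were called in any mutant by limma, edgeR or DESeq2. By limma, 0.169% (PAS-T4C) to 3.47% (ssu72D) of all features were called, so 0 of 30 lies near that share and says little about these genes. At an unadjusted p under 0.05 the largest numbers were 10 higher in pfs2-F115H, 8 higher in dis2D and 8 lower in swd22D. The share of all features at that threshold is not given beside them.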

How the data were processed

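The authors sequenced total RNA (TruSeq Stranded Total RNA kit), aligned the reads with STAR 2.7.3a to ASM294v2 and counted uniquely mapped reads per feature on the sense strand with featureCounts; reads that hit more than 1 feature on a strand were not counted. The deposited values are CPM, read counts scaled to the total of each library. All values were whole multiples of 1 read within a tolerance of 0.02 reads, so the reads were recovered (100% of values). Log2(CPM + 1) was fitted by limma 3.58.1 (R 4.3.3) with a mean-variance trend, 1 coefficient per strain over 30 libraries (20 residual degrees of freedom), and edgeR 4.0.16 and DESeq2 1.42.0 were run on the recovered reads. Simulated libraries with 200 changed features among 5894 were used as a test for pfs2-F115H against wt: 100 of 100 4-fold and 89 of 100 2.5-fold changes were called, with 0 false calls. These numbers were taken over features of all kinds, so they do not give the recovery or the false calls among the scarce antisense RNAs. The members and gene lists were chosen with earlier results of these data known. Named were, per mutant, the 6 called antisense RNAs and 3 called sense partners with the largest changes, every pair with both called, the 5 most abundant antisense RNAs and 5 highest antisense-to-sense ratios in wt, those called in the most mutants, and the mutated genes; upstream genes were added after their values were seen. Positions and sequences are from RefSeq's ASM294v3. Alternatives were the pseudocount, the filter, the scaling, other tests, the replicate block, no minimum change and single libraries left out. Replicate numbers did not pair the libraries. The 7 small RNA samples were not used here.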

Additional observations from a re-analysis of the deposited data

How the results depend on the processing

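The counts in this section are given without the share of all features called under each setting. They describe only how far the counts moved. The counts of called features moved by more than 1.5 times in these cases. Without the 2-fold minimum, the antisense RNAs called in yth1-R59C, pfs2-F115H, ssu72D, dis2D, the libraries labelled ppn1D, swd22D, PAS-T4A, PAS-T4C and PAS-T4G numbered 41, 126, 108, 40, 6, 70, 7, 6 and 16, and the sense partners 21, 110, 94, 71, 14, 126, 30, 14 and 31. By edgeR the antisense counts were 31 in yth1-R59C, 113 in ssu72D, 9 in ppn1D, 4 in PAS-T4C and 2 in PAS-T4G, and the sense count was 7 in yth1-R59C. By DESeq2 the antisense counts were 4 in ppn1D, 0 in PAS-T4A, 0 in PAS-T4C and 1 in PAS-T4G, and the sense counts 5 in yth1-R59C, 0 in PAS-T4A and 1 in PAS-T4G. With a pseudocount of 0.1, antisense counts were 4 in ppn1D and 5 in PAS-T4C, and sense counts 0 in yth1-R59C and 1 in PAS-T4C. Without the filter on low values, the antisense count was 1 in PAS-T4A, and the sense count 1 in yth1-R59C and 1 in PAS-T4C, as with median-of-ratios scaling. The next 2 alternatives were chosen after the data were seen. At equal depth, antisense counts were 12 in yth1-R59C, 45 in ssu72D, 5 in PAS-T4C and 1 in PAS-T4G. With the 9 reporter mutant libraries in place of wt, antisense counts were 45 in yth1-R59C, 104 in ssu72D and 5 in ppn1D, and sense counts 7 in yth1-R59C and 19 in dis2D.

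Without single libraries, the antisense counts ranged over 12 to 23 in yth1-R59C, 59 to 78 in pfs2-F115H, 48 to 62 in ssu72D, 14 to 22 in dis2D, 1 to 4 in ppn1D, 27 to 42 in swd22D, 0 to 4 in PAS-T4A, 0 to 4 in PAS-T4C and 2 to 7 in PAS-T4G. The sense counts ranged over 0 to 1, 10 to 16, 22 to 28, 11 to 13, 2 to 5, 18 to 23, 0 to 2, 0 to 1 and 1 to 3 in the same strains. Of 80 named changes, 59 kept an adjusted p under 0.05 without any 1 library, 49 of them at 2-fold or more in each fit, and 50 kept that adjusted p under every alternative run. The within-library strand difference changed sign for num1 in pfs2-F115H (0.025 with a pseudocount of 0.1, and -0.24 to 0.10 without 1 library), SPBC1271.08c in dis2D (-0.16 without wt replicate 3, up to 0.45 without 1 library) and imt2 in ppn1D (-0.087 without ppn1D replicate 1, up to 0.46 without 1 library). The causes were not tested.

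Libraries with the same replicate number did not pair: r between their deviations ran from -0.17 to 0.20, and 8 of 27 mutant libraries correlated best with the wt library of their own number. With the replicate block, tfb5 in PAS-T4A and SPBC21C3.07c-antisense-1 in PAS-T4G lost their calls (adjusted p 0.0579 and 0.0554), and no other named change lost an adjusted p under 0.05. Depth limits the scarce antisense RNAs, since 3 reads were worth up to 2.91 CPM.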
